A study of Homo sapiens with 26 samples.

Results

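The genes described here are the human translation initiation factor genes, taken as every gene symbol in the 2 expected-count tables that starts with EIF and a digit from 1 to 6 and holds no hyphen. The rule found 56 of the 26485 genes listed, and it used no measured value. The filter on low counts was passed by 53 of the 56 in each table. The exceptions were EIF3IP1, a pseudogene listed at 0 counts in all 26 libraries, EIF4E1B, which reached at most 0.193 CPM (read counts scaled to a common library size) in any library, and the Y-linked EIF1AY, whose level is not given.

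The RNA came from KELLY, an established human neuroblastoma line in which MYCN is amplified. All cultured cells carried a doxycycline-inducible lentiviral vector (F1HUTG, which also encodes green fluorescent protein), either empty (EV) or with a short hairpin against RUNX1T1, named sh4 or shAMB, and each of the 3 lines received DMSO or doxycycline for 72 h, with 3 libraries per group. The other 8 libraries came from KELLY tumours grown in mice, 4 labelled control (genotype WT, control food) and 4 labelled RUNX1T1 knock-out (doxycycline food). Per the study's methods these hosts were NOD SCID gamma females, which lack B, T and NK cells but keep myeloid cells, and the grafted cells carried an inducible hairpin derived from a commercial Ambion siRNA, so that the group called KO here is a hairpin model. Per the paper, the hairpin of the tumours was also used in culture, and its other RUNX1T1 hairpin in culture only. The labels do not say whether the tumours' hairpin is shAMB, though that name may stand for Ambion. If it is, shAMB cells and KO tumours test 1 hairpin and not 2. The count columns of the culture libraries say Neg or Pos in place of the treatment, which was taken to mean without and with doxycycline. The direction of each culture comparison rests on this reading. Each hairpin is represented by 1 transduced line, and whether replicates were separate cultures is not given in the sources used here, so p-values measure the spread between these libraries.

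Initiation is the step at which a ribosome is placed on an mRNA start codon. eIF4F (the cap-binding protein eIF4E, the scaffold eIF4G and the helicase eIF4A) prepares the capped mRNA end, eIF3 joins it to the small ribosomal subunit, and eIF2 brings the initiator tRNA, which eIF1 and eIF1A help to match to the start codon. Cells tune the process in 2 well known ways: kinases phosphorylate the alpha subunit of eIF2, which blocks its recycling by eIF2B, and the 4E-binding proteins hold eIF4E away from eIF4G when mTOR is inactive. MYC proteins are known drivers of protein synthesis, and neuroblastoma with amplified MYCN is known for high ribosome production.

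Total expected counts ranged from 35115915 to 54736733 per culture library and from 47346063 to 62378060 per tumour library, of which the initiation factor genes took 1.49% to 1.62% and 1.14% to 1.36%. RUNX1T1 itself did not pass the test in any of the 3 doxycycline comparisons or in the tumours (adjusted p of 0.117 to 0.672), although its level in the sh4 line under DMSO was below that of the EV line (log2 fold change -0.29 ± 0.05 (SE), adjusted p = 0.0144) and its response in shAMB cells lay above that in EV cells (difference 0.21 ± 0.08 (SE), adjusted p = 0.0353). Groups are therefore called by their labels and not by a measured loss of RUNX1T1 mRNA. The paper reports less RUNX1T1 protein in KELLY cells after induction of each of its hairpins, and loss of its staining in KELLY tumours. Whether the samples sequenced here were among those is not given in the sources used here, and these libraries hold no protein measurement. The 8 sympathetic neuroblastoma markers summed to between 1643 and 3364 CPM in every library. The 4 endothelial markers summed to at most 2.25 CPM. The 4 myeloid markers summed to 1.72 to 2.65 CPM in KO tumours and 1.09 to 1.63 in control tumours, and the 4 Schwann cell markers to 2.60 to 3.16 CPM in KO and 5.17 to 6.97 in control tumours. The 5 fibroblast markers summed to 71.6 to 113 CPM in KO tumours and 45.7 to 78.0 in control tumours, and to 68.4 to 86.6 in shAMB cells with doxycycline against 42.0 to 50.4 with DMSO; 3 of the 5 had a mean of at least 1 CPM in culture, and COL1A2 was at 0 in all EV libraries. Most of the fibroblast sum was PDGFRB, with means of 89.0 CPM in KO and 58.9 in control tumours. In shAMB cells PDGFRB was at 59.1 CPM with doxycycline and 33.8 with DMSO. LUM was at 0.479 CPM in KO and 0.388 in control tumours, and DCN at 0.121 and 0.0739. The part of all these markers in the results was not tested. Reads from mouse host cells could also enter the tumour counts, and their share was not measured.

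Levels of different genes were compared per length, in TPM, the authors' values scaled by gene length and library. In EV cells with DMSO the helicase gene EIF4A1 was the most abundant member at 1665 ± 21.8 (SD, n = 3) TPM, followed by EIF1, the start codon fidelity factor, at 1061 ± 64.1 (SD, n = 3), EIF5A at 928 ± 126 (SD, n = 3) and the eIF3 subunit gene EIF3E at 749 ± 74.8 (SD, n = 3). EIF1 and EIF5A did not differ beyond their spread, nor did EIF3E and the next member, EIF4G2, at 748 ± 45.4 (SD, n = 3) TPM. Paralogs differed widely in level. Against EIF5A, its close relative EIF5A2 stood at 13.3 ± 0.836 (SD, n = 3) TPM. Among the cap-binding proteins, EIF4E at 123 ± 11.4 (SD, n = 3) and EIF4E2 at 161 ± 3.98 (SD, n = 3) TPM were far above EIF4E3 at 4.23 ± 0.200 (SD, n = 3). Of the 4E-binding proteins, EIF4EBP2 at 72.0 ± 5.79 (SD, n = 3) and EIF4EBP1 at 59.7 ± 18.3 (SD, n = 3) TPM overlapped in their spread and EIF4EBP3 stood at 5.37 ± 0.880 (SD, n = 3). In control tumours EIF4A1 again ranked 1 and EIF5A again ranked 3, EIF3L moved from rank 7 to 2 and EIF1 from 2 to 8. The tables were scaled separately, so only ranks are compared there.

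Promoter sequences from RefSeq (assembly GRCh38.p14, 250 bases before to 50 after the start of each gene) were at hand for 46 of the 56 members, 44 of them among the genes tested. The letters CACGTG (the E-box) read the same on both strands and are the core motif of MYC, MYCN and MAX among other factors. They occurred in the windows of 12 of these 44 members (27.3%). That compares with 9.76% of the 11573 windows of all genes tested in culture or in tumours and 7.43% of all 27305 windows. For comparison, GGGCGG (the GC box, both strands) occurred in 68.2% of the members' windows and 66.5% of those of tested genes, CCGGAAG (an ETS motif, both strands) in 25% and 17.3%, and TGATGNAA (a C/EBP-ATF motif, both strands) in 0 of 44 and 1.88%. The stretches below hold the E-boxes (in capitals) of some of the 12 members, 5′ to 3′ on the strand of the gene. Those of EIF1B, EIF2B3, EIF3K, EIF4A3, EIF4EBP3 and EIF4H are not printed.
EIF4E (chr4:98929170-98929235, minus strand): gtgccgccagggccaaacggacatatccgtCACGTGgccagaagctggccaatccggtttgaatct
EIF4B (chr12:53006404-53006455, plus strand): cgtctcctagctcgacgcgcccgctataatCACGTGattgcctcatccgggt
EIF4G1 (chr3:184314509-184314574, plus strand): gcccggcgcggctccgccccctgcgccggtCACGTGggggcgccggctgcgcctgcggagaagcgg
EIF3F (chr11:7987239-7987304, plus strand): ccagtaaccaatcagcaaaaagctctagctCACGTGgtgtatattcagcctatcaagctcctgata
EIF2AK2 (chr2:37157126-37157191, minus strand): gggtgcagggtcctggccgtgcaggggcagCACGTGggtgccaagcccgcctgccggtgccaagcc
EIF5A2 (chr3:170908764-170908829, minus strand): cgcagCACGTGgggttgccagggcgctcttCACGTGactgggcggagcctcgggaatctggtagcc
The E-boxes shown for EIF4E, EIF3F, EIF4G1 and EIF4B began 72, 68, 67 and 22 bases before the start. The EIF4E and EIF4G1 windows each hold another copy, 225 and 144 bases before it, and the EIF5A2 stretch holds 2 copies. Members with an E-box went both ways. In sh4 cells 3 of the 12 rose with doxycycline and 5 fell, in shAMB cells 3 rose and 5 fell, and in the tumours 2 were higher and 3 lower in the KO group. Of the 32 other members with a window, 4 rose and 12 fell in sh4 cells, 8 rose and 16 fell in shAMB cells, and 3 were higher and 10 lower in KO tumours. The background for both sets of counts is the share of all genes tested that passed in either direction. It was 40.9% in sh4 cells, 66.0% in shAMB cells and 41.1% in tumours. MYCN mRNA was higher with doxycycline in sh4 cells (log2 fold change 0.68 ± 0.08 (SE), adjusted p = 4.62e-06) and shAMB cells (1.57 ± 0.08, adjusted p = 1.8e-10) and in KO tumours (1.46 ± 0.14, adjusted p = 3.14e-05). Its part in the members' levels was not tested.

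Doxycycline without a hairpin moved no initiation factor gene past the test. In EV cells 0 of 53 members passed (edgeR's quasi-likelihood test, adjusted p under 0.05, as throughout), against 0.0939% of the 14905 genes tested (0.0134% higher and 0.0805% lower); 3 members had an unadjusted p under 0.05, and DESeq2 also called 0. The members' median log2 fold change was 0.04, beside 0.01 over all genes. Before induction, against EV cells with DMSO, 0 of 53 members passed in sh4 cells (17, or 32.1%, at an unadjusted p under 0.05, as were 28% of all genes; background 1.12%, 0.597% higher and 0.523% lower) and 0 in shAMB cells (3, or 5.66%, at an unadjusted p under 0.05, as were 11% of all genes; background 1.52%, 1.11% higher and 0.416% lower). DESeq2 called 1 in each, with 2.79% of all genes called in sh4 cells and 1.97% in shAMB cells.

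The comparison of doxycycline with DMSO in each hairpin line, and of KO with control tumours, asks how transcript levels change when a hairpin against RUNX1T1 is induced. No empty-vector tumours were sampled, so in tumours an effect of the hairpin cannot be told apart from one of doxycycline food. Many initiation factor genes moved, mostly by less than 1 log2 unit. In sh4 cells 29 of 53 members (54.7%) passed, 8 higher and 21 lower, where 40.9% of all genes tested passed (22.9% higher and 18% lower). In shAMB cells 37 of 53 (69.8%) passed, 12 higher and 25 lower, against a background of 66.0% (37.6% higher and 28.4% lower). In KO tumours 22 of 53 (41.5%) passed, 5 higher and 17 lower, where 41.1% of 15960 genes did (21.2% higher and 19.9% lower). The members' overall share of calls was therefore near the background in the tumours and in shAMB cells and above it in sh4 cells, and in all 3 comparisons more members were lower than higher. Of all genes called, 56.0% were higher in sh4 cells, 56.9% in shAMB cells and 51.6% in tumours, the last turning to 46.0% without the filter and 47.0% with GC and length trends removed. The groups did not overlap for 41.3% of all genes in sh4 cells, 73.4% in shAMB cells and 36.7% in tumours, which is the background for such statements on single members. The medians of the members' log2 fold changes were -0.13, -0.07 and -0.15, beside -0.0046, 0.10 and 0.02 over all genes. With trends of GC content and gene length removed from each library, the shAMB count became 23 higher and 27 lower. Of all genes, 71.7% were called in that fit, 52.7% of these higher.

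**Figure D1:**
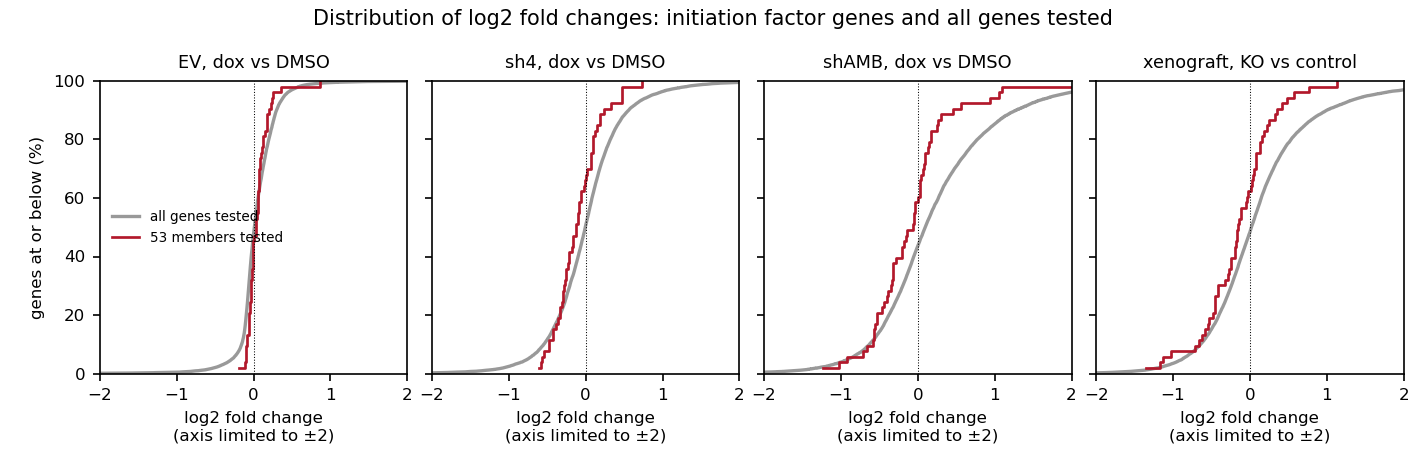
Cumulative share of genes (vertical axis, percent) at or below each log2 fold change (horizontal axis) for all genes tested (grey) and the 53 initiation factor genes tested (red), in the 4 comparisons. The red curve lies left of the grey one over most of its range in sh4, shAMB and tumours, with medians of -0.13, -0.07 and -0.15, and close to it in EV cells.

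The effect of doxycycline also differed from that in EV cells when the difference was tested directly. It did so for 24 members in sh4 cells (6 higher, 18 lower, background 32.6%) and for 27 in shAMB cells (5 higher, 22 lower, background 45.5%). With GC and length trends removed, the shAMB count became 17 higher and 26 lower, against a background of 58.9%. The 2 hairpins differed from each other for 28 members, 12 higher and 16 lower in shAMB than in sh4, where 60.9% of all genes differed. The counts were 10 higher and 21 lower with RLE scaling (background 60.5%), and 18 and 18 with GC and length trends removed (64.9%). These comparisons share the EV libraries or the hairpin libraries and are not independent.

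**Figure D2:**
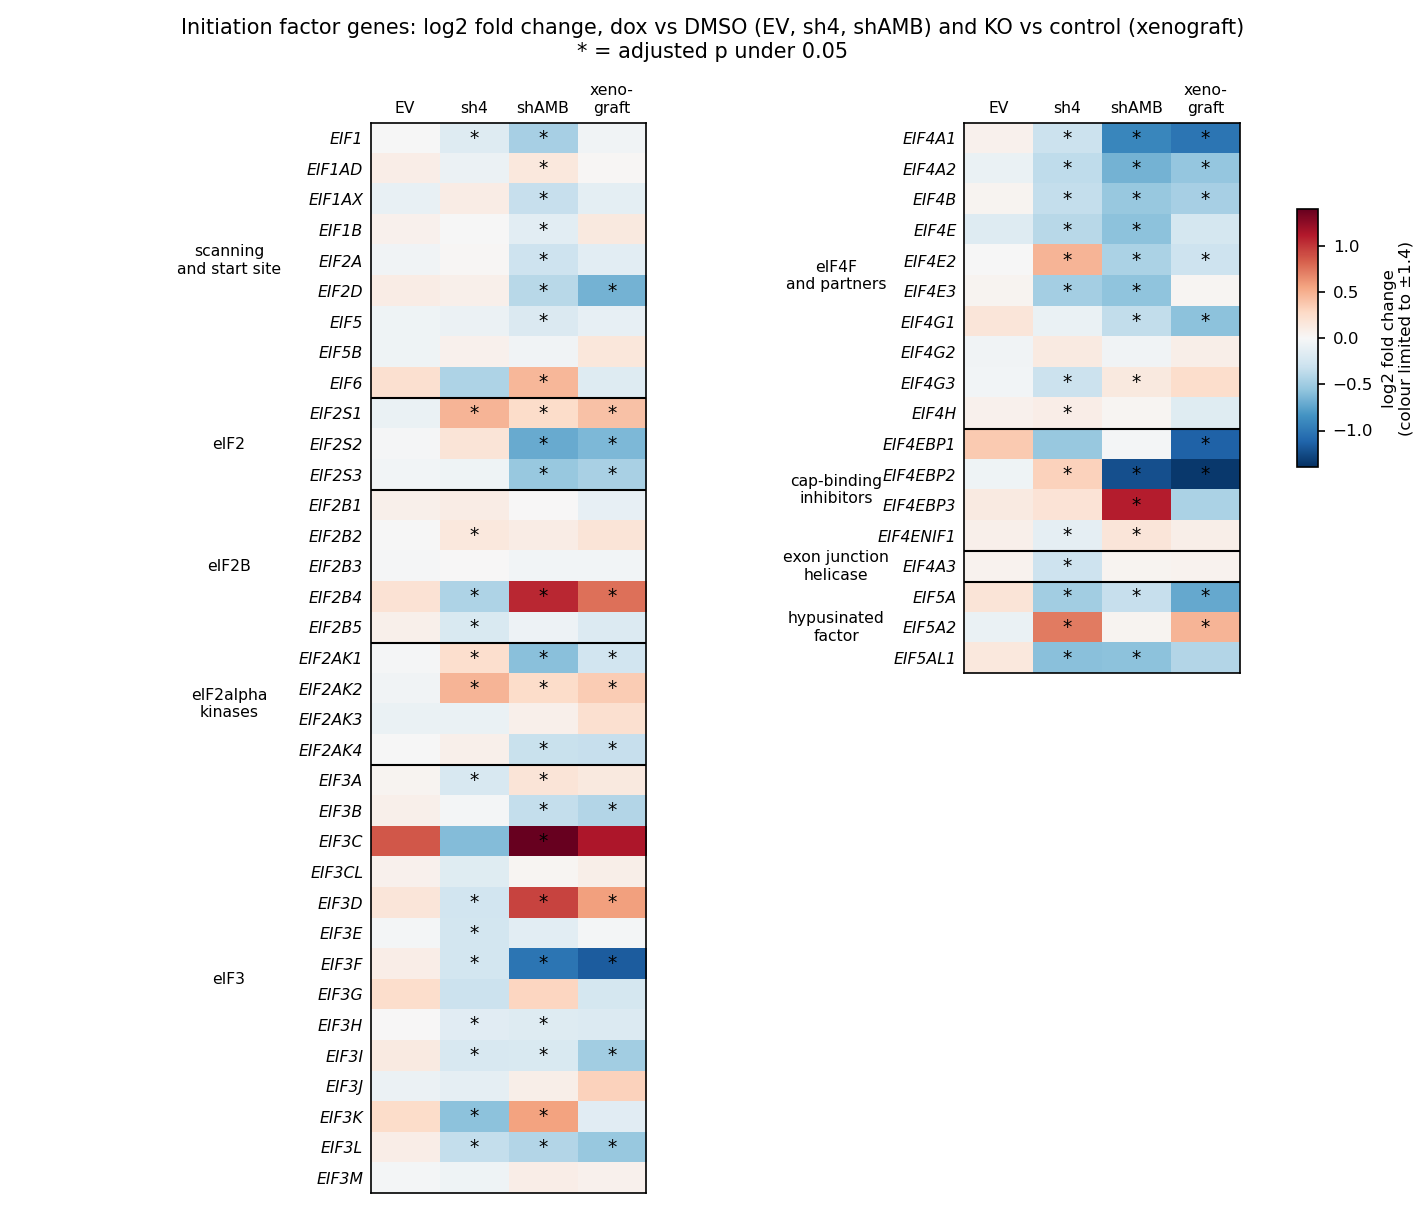
Log2 fold change (colour) of the 53 tested members (rows, grouped by role) in 4 comparisons (columns), with a star where adjusted p was under 0.05. The EV column has no star; EIF4A1, EIF4A2 and EIF4B are blue with a star in the other 3 columns, whereas EIF2B4, EIF3D and EIF4EBP2 change colour between sh4 and shAMB.

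Of the 10 tested members of the eIF4F complex and its partners, 2 rose and 6 fell in sh4 cells (80.0% called, background 40.9%), 1 rose and 7 fell in shAMB cells (80.0%, background 66.0%), and 0 were higher and 5 lower in KO tumours (50.0%, background 41.1%). EIF4A1, the main helicase gene (chr17:7572824-7579006, plus strand, GRCh38), was at 1465, 1506 and 1483 CPM in sh4 cells with DMSO and 1213, 1213 and 1187 with doxycycline. In the shAMB line it was at 1417, 1436 and 1547 CPM with DMSO and 799.7, 797 and 737 with doxycycline, and in tumours at 1243, 980.2, 1300.1 and 1291 in controls and 626, 549, 647 and 553 in KO. Every treated or KO library lay below every one of its comparison group. The log2 fold changes were -0.30 ± 0.04 (SE), adjusted p = 3.2e-05 in sh4, -0.91 ± 0.04 (SE), adjusted p = 6.6e-11 in shAMB and -1.02 ± 0.12 (SE), adjusted p = 8.31e-05 in tumours. Other transcripts on the same strand, the readthrough SENP3-EIF4A1 and small nucleolar RNAs among them, overlap 47.4% of the exonic bases of EIF4A1, and 13 pseudogenes carry its name, so its counts may hold reads from these.

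The second helicase gene EIF4A2 fell in the same 3 comparisons (-0.36, -0.66 and -0.54 on the log2 scale), as did EIF4B, which stimulates the helicase (-0.34, -0.53 and -0.46). The EIF4A2 call in tumours was lost without KO replicate 2 (adjusted p = 0.0587). EIF4B was at 1026, 1032 and 987 CPM in shAMB cells with DMSO and 728, 709 and 666 with doxycycline. EIF4A3, a relative that works in the exon junction complex and not in initiation, fell in sh4 cells (-0.29 ± 0.04 (SE), adjusted p = 4.24e-05), and its log2 fold changes of 0.03 in shAMB cells and 0.05 in tumours did not pass.

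Among the cap-binding proteins the paralogs moved apart. EIF4E, the canonical cap-binding protein, was at 181, 197 and 209 CPM with DMSO and 162, 156 and 130.4 with doxycycline in sh4 cells and fell there (-0.39 ± 0.08 (SE), adjusted p = 0.001) and in shAMB cells (-0.57 ± 0.08 (SE), adjusted p = 1.36e-05). In KO tumours its log2 fold change of -0.24 did not pass (adjusted p = 0.096), and it did without control replicate 2 (adjusted p = 0.0244). EIF4E2, which binds caps without recruiting eIF4G and is known as a translational repressor, was at 113, 119 and 122 CPM in sh4 cells with DMSO and 167, 167 and 157 with doxycycline (0.47 ± 0.04 (SE), adjusted p = 3.91e-07). In shAMB cells it went the other way, from 117, 120.1 and 121 to 92.0, 89.1 and 83.4 CPM (-0.44 ± 0.04 (SE), adjusted p = 3.71e-07), and it was also lower in KO tumours (-0.29 ± 0.08 (SE), adjusted p = 0.0129). The 2 hairpins' effects on EIF4E2 differed by -0.91 ± 0.06 log2 units (SE, shAMB minus sh4, adjusted p = 9.32e-09). EIF4E3, the scarcest of the 3, fell in both hairpin lines (-0.48 and -0.56) and had a log2 fold change of 0.03 in tumours (adjusted p = 0.898).

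Of the scaffolds, EIF4G1 fell in shAMB cells (-0.35 ± 0.11 (SE), adjusted p = 0.0136) and was lower in KO tumours (-0.58 ± 0.15 (SE), adjusted p = 0.0094). In shAMB cells the call was lost without doxycycline replicate 1 (adjusted p = 0.0526). Its relative EIF4G3 went from 234, 232 and 256 to 202, 203 and 181 CPM in sh4 cells and fell (-0.30 ± 0.05 (SE), adjusted p = 0.000147), while in shAMB cells it rose slightly (0.14 ± 0.05 (SE), adjusted p = 0.0208), a call lost with RLE scaling (adjusted p = 0.349), with DESeq2 (0.372), without filtering (0.191) and in 3 of the 6 fits that left out 1 library (adjusted p up to 0.0883). EIF4G2, which lacks the eIF4E-binding part of the other scaffolds, did not pass in any of the 3 comparisons (log2 fold changes 0.13, -0.05 and 0.08). EIF4H, a helicase cofactor, rose in sh4 cells by 0.09 on the log2 scale and did not pass in shAMB cells (0.03) or tumours (-0.17).

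EIF4EBP2, the 4E-binding protein gene with the most reads (chr10:70404145-70428618, plus strand, GRCh38), gave the largest fall of any member in shAMB cells and in tumours, and rose in sh4 cells. It was at 244, 253 and 274 CPM in sh4 cells with DMSO and 340.5, 328 and 296 with doxycycline. In the shAMB line it was at 282, 293 and 275 with DMSO and 125, 122 and 116 with doxycycline, and in tumours at 275, 269, 207 and 250.4 in controls and 94.8, 94.5, 97.4 and 107 in KO. No group overlapped its comparison group in these 3 pairs. The log2 fold changes were 0.32 ± 0.06 (SE), adjusted p = 0.00047 in sh4, -1.23 ± 0.06 (SE), adjusted p = 1.42e-10 in shAMB and -1.35 ± 0.10 (SE), adjusted p = 9.54e-06 in tumours, and the effects of the 2 hairpins differed by -1.55 ± 0.09 log2 units (SE, shAMB minus sh4, adjusted p = 1.14e-09). In EV cells the gene stayed between 249 and 287 CPM over all 6 libraries.

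**Figure D3:**
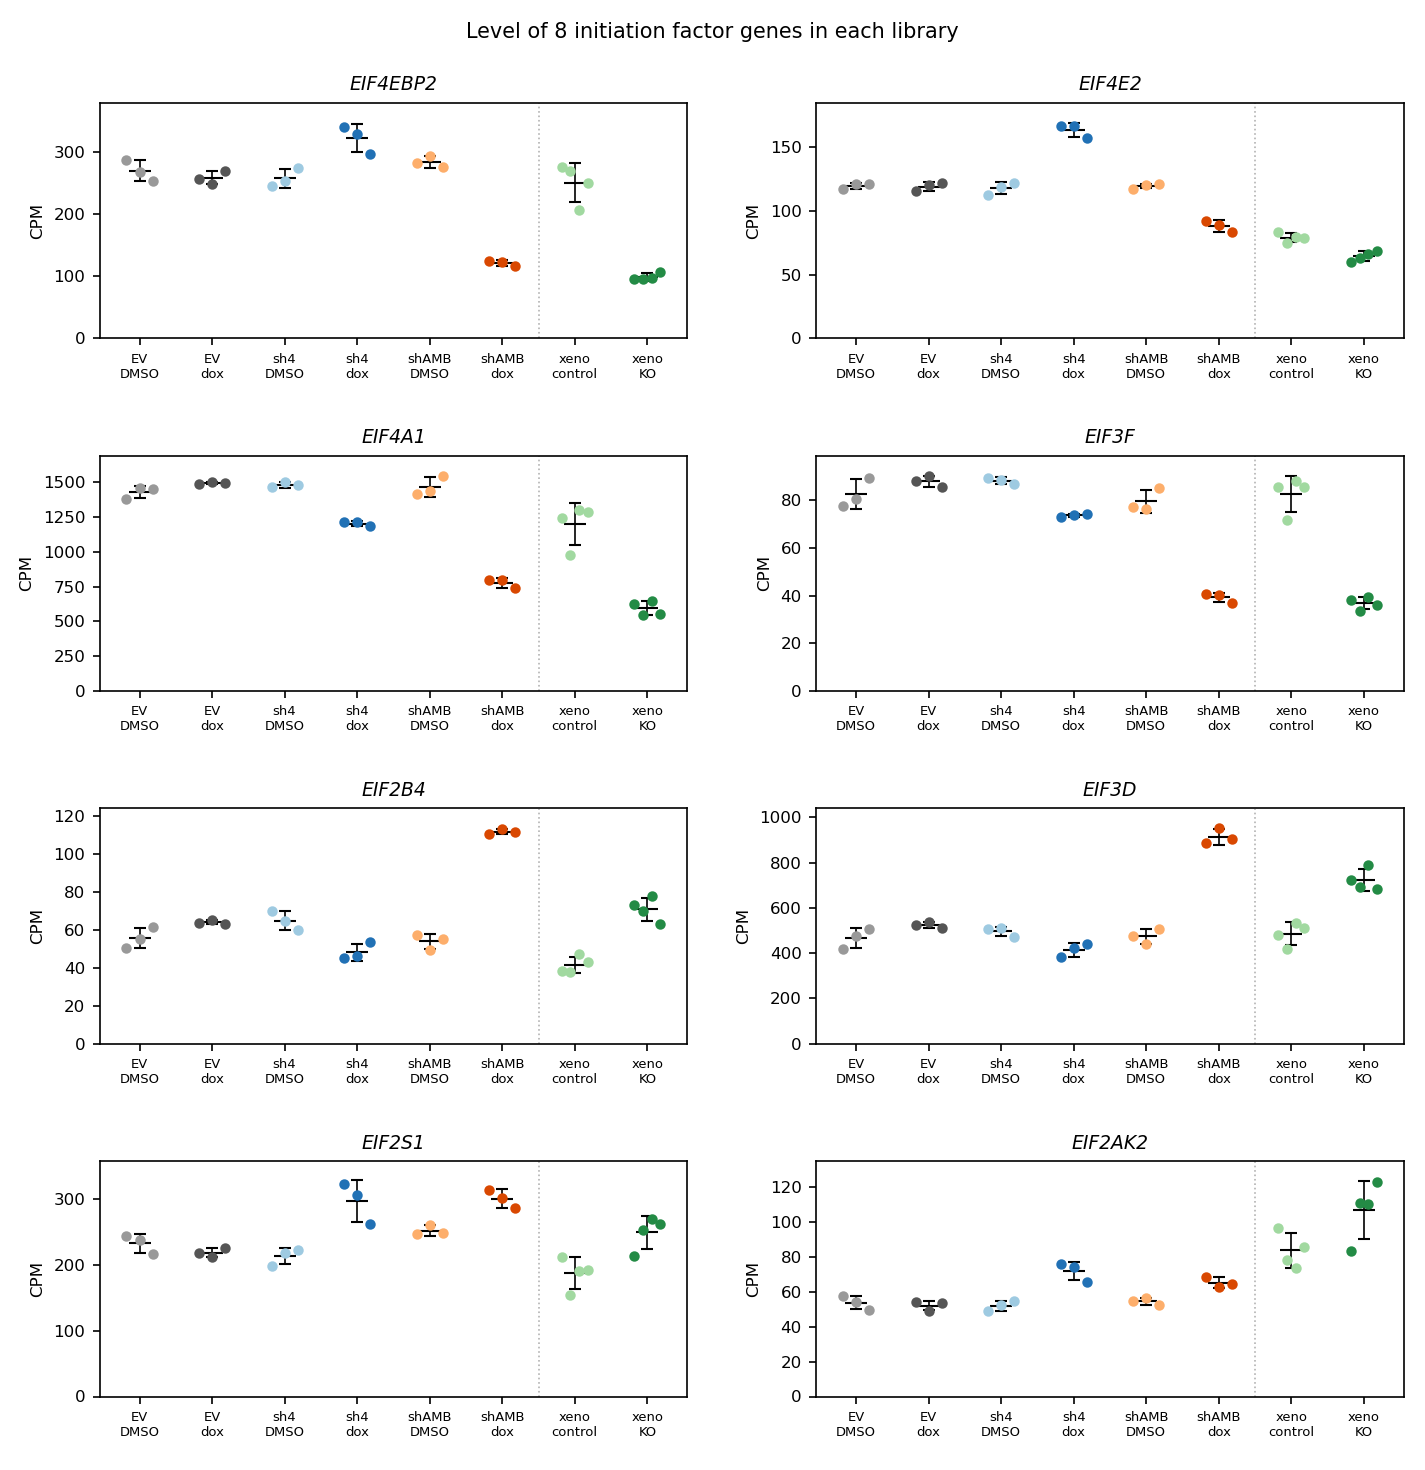
Level of 8 members in each library (vertical axes, CPM from 0), by group (horizontal axes); points are libraries, bars the mean and SD of 3 culture or 4 tumour libraries, and the dotted line separates culture from tumours. EIF4EBP2 and EIF4E2 lie above their DMSO group in sh4 and below it in shAMB, EIF2B4 and EIF3D do the reverse, and EIF4A1 and EIF3F are lower with doxycycline in both hairpin lines and in KO tumours.

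EIF4EBP1, the other abundant member of that family, varied widely between replicates. In sh4 cells it was at 41.4, 35.4 and 26.2 CPM with DMSO and 16.5, 17.6 and 37.2 with doxycycline, so the groups overlapped (-0.54 ± 0.28 (SE), adjusted p = 0.141), and without doxycycline replicate 3 the log2 fold change became -1.01 and passed (adjusted p = 0.00186). In KO tumours it was lower, at 17.7, 9.87, 10.6 and 5.75 against 12.9, 24.4, 30.5 and 28.7 CPM (-1.14 ± 0.33 (SE), adjusted p = 0.018), with overlapping groups and the call lost without KO replicate 2 (adjusted p = 0.052). EIF4EBP3 reached at most 3.08 CPM in any library and rose in shAMB cells, at 1.90, 2.66 and 2.61 against 1.51, 1.23 and 0.614 CPM (1.10 ± 0.27 (SE), adjusted p = 0.00209). The readthrough transcript ANKHD1-EIF4EBP3 covers 73.2% of its exonic bases on the same strand, so this value is uncertain. EIF4ENIF1, which carries eIF4E to the nucleus and binds it in repressed mRNPs, fell in sh4 cells (-0.13) and rose in shAMB cells (0.17).

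The subunits of eIF3, the scaffold on the small ribosomal subunit, did not move as a block. The 14 genes counted here include both EIF3C and its near-identical copy EIF3CL, whose separate values are uncertain. In sh4 cells all 14 had a negative log2 fold change, 8 of them past the test (57.1%, background 40.9%) and 0 higher. In shAMB cells 4 rose, EIF3C among them, and 5 fell (64.3%, background 66.0%), and in KO tumours 1 was higher and 4 were lower (35.7%, background 41.1%). EIF3F (chr11:7970251-8001862, plus strand, GRCh38) fell the most in shAMB cells and tumours. It was at 89.6, 88.6 and 86.7 CPM with DMSO and 73.0, 74.0 and 74.2 with doxycycline in sh4 cells, 77.4, 76.2 and 85.2 and 40.5, 40.2 and 37.0 in shAMB cells, and 85.5, 71.6, 88.0 and 85.7 in control against 38.1, 33.7, 39.6 and 36.1 in KO tumours. In each of the 3 pairs the groups did not overlap. The log2 fold changes were -0.26 ± 0.06 (SE), adjusted p = 0.00139, -1.02 ± 0.06 (SE), adjusted p = 4.61e-10 and -1.16 ± 0.09 (SE), adjusted p = 1.21e-05. The subunit genes EIF3I and EIF3L fell in the same 3 comparisons, EIF3L by 0.34, 0.41 and 0.53 on the log2 scale and EIF3I by 0.22, 0.21 and 0.49. A same-strand transcript overlaps 41.1% of the exonic bases of EIF3L.

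EIF3D, the subunit that can itself bind the mRNA cap (chr22:36510855-36529184, minus strand, GRCh38), rose with shAMB from 478, 439 and 507 to 886, 952 and 903 CPM (0.95 ± 0.07 (SE), adjusted p = 1.24e-08) and was higher in KO tumours, at 724, 694, 792 and 685 against 482, 418, 534 and 509.8 (0.57 ± 0.10 (SE), adjusted p = 0.00116). With sh4 it fell from 508, 509 and 473 to 382, 421 and 439 CPM (-0.26 ± 0.07 (SE), adjusted p = 0.00656), and the 2 effects differed by 1.21 ± 0.10 log2 units (SE, shAMB minus sh4, adjusted p = 6.89e-08). EIF3A, the largest subunit, also fell with sh4 (-0.23) and rose with shAMB (0.18), by less. EIF3B, its core partner, fell with shAMB (-0.33) and in KO tumours (-0.41), with a log2 fold change of -0.02 in sh4 cells.

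EIF3C and EIF3CL are near-identical copies on chromosome 16 (chr16:28688558-28735727, plus strand, GRCh38 and chr16:28379579-28403841, minus strand, GRCh38), and their separate values are uncertain. EIF3C ranged from 3.78 to 25.2 CPM in the shAMB libraries with DMSO and from 15.4 to 109.7 CPM in the sh4 libraries with doxycycline, while EIF3CL kept to between 571 and 674 CPM in the shAMB line. EIF3C alone gave 3.30 ± 0.84 (SE), adjusted p = 0.00273 in shAMB cells. Summed over both copies, an alternative added after seeing the data, the change was 0.25 (adjusted p = 4.17e-05) in shAMB cells, -0.21 (adjusted p = 0.000534) in sh4 cells and 0.18 in tumours (adjusted p = 0.115).

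The subunits of eIF2, which carries the initiator tRNA, split. EIF2S1, the alpha subunit that the stress kinases phosphorylate, rose in sh4 cells from 199, 218 and 223 to 323, 305 and 262 CPM (0.48 ± 0.07 (SE), adjusted p = 4.87e-05) and in shAMB cells from 246, 261 and 248 to 314, 301 and 285 (0.25 ± 0.07 (SE), adjusted p = 0.00474). In KO tumours it was at 213, 253, 269.8 and 261 against 212, 154, 191 and 191 CPM (0.41 ± 0.11 (SE), adjusted p = 0.0138). The shAMB call was lost with RLE scaling (adjusted p = 0.0593) and DESeq2 (0.0551). The beta subunit EIF2S2 went the other way in shAMB cells, from 250.4, 251 and 239 to 159.5, 156 and 138 CPM (-0.71 ± 0.07 (SE), adjusted p = 4.21e-07), and in tumours, at 184, 134, 164 and 163 in controls and 108, 99.0, 104 and 106 in KO (-0.63 ± 0.10 (SE), adjusted p = 0.000598). The gamma subunit EIF2S3 fell with it (-0.53 and -0.45), and neither passed in sh4 cells (0.18 and -0.06).

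Of the 5 subunits of eIF2B, the factor that reloads eIF2 with GTP, 1 stood apart. EIF2B4, the delta subunit (chr2:27364352-27370338, minus strand, GRCh38), fell in sh4 cells from 70.1, 64.7 and 60.0 to 45.3, 46.1 and 53.4 CPM (-0.43 ± 0.08 (SE), adjusted p = 0.00039). In shAMB cells it rose from 57.1, 49.4 and 55.3 to 110.5, 113 and 112 (1.05 ± 0.08 (SE), adjusted p = 1.41e-08), and in KO tumours it was at 73.2, 69.8, 77.7 and 63.0 against 38.5, 37.7, 47.1 and 42.9 CPM (0.77 ± 0.10 (SE), adjusted p = 0.000195). The 2 hairpins' effects differed by 1.48 ± 0.11 log2 units (SE, shAMB minus sh4, adjusted p = 2.75e-08). The other 4 subunits stayed within 0.21 log2 units of 0 in all 3 comparisons, and of those EIF2B2 rose and EIF2B5 fell in sh4 cells.

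The 4 kinases of the eIF2 alpha subunit are each known for another stress. EIF2AK2, or PKR, which senses double-stranded RNA, rose in sh4 cells from 48.7, 52.0 and 54.6 to 75.9, 73.8 and 65.7 CPM (0.47 ± 0.07 (SE), adjusted p = 3.93e-05) and in shAMB cells from 54.6, 56.3 and 52.5 to 68.3, 62.5 and 64.5 (0.26 ± 0.07 (SE), adjusted p = 0.0035). In KO tumours it was at 83.2, 111, 109.8 and 123 against 96.5, 78.3, 73.6 and 85.7 CPM with overlapping groups (0.35 ± 0.13 (SE), adjusted p = 0.0458), a call lost in 6 of the 8 fits that left out 1 library (adjusted p up to 0.131). In EV cells with doxycycline, which express no hairpin, it had a log2 fold change of -0.05 (adjusted p = 0.752). EIF2AK1, or HRI, the heme-regulated kinase, rose in sh4 cells (0.23 ± 0.05 (SE), adjusted p = 0.00147) and fell in shAMB cells, from 413, 404 and 398 to 284, 270.5 and 257 CPM (-0.58 ± 0.05 (SE), adjusted p = 7.55e-08), and its lower level in KO tumours (-0.27 ± 0.09 (SE), adjusted p = 0.0339) lost its call in 5 of those 8 fits. EIF2AK4, or GCN2, the amino acid sensor, fell in shAMB cells (-0.32) and was lower in KO tumours (-0.32), the latter call being lost without KO replicate 2 (adjusted p = 0.0512). EIF2AK3, or PERK, the sensor in the endoplasmic reticulum, did not pass in any comparison (log2 fold changes -0.10, 0.07 and 0.22).

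Of the 9 tested members grouped under scanning, start site choice and subunit joining, 1 passed in sh4 cells (11.1%, background 40.9%). In shAMB cells 8 passed (2 higher and 6 lower, 88.9%, background 66.0%), and in tumours 1 did (11.1%, background 41.1%). The 2 higher in shAMB cells were EIF1AD and EIF6, for which no role in scanning is claimed here. The shAMB effect differed from the EV effect for 3 of the 9 (33.3%, background 45.5%). EIF1 was at 622, 667 and 664 CPM in shAMB cells with DMSO and 499, 490.5 and 427 with doxycycline (-0.46 ± 0.07 (SE), adjusted p = 1.51e-05). In sh4 cells it fell by 0.18 on the log2 scale (adjusted p = 0.036), a call lost with RLE scaling (adjusted p = 0.051), with GC and length trends removed (0.198), in the 6 libraries alone (0.126) and without DMSO replicate 2 (0.111), DMSO replicate 3 (0.102) or doxycycline replicate 3 (0.129). EIF1B, its close paralog, had a shAMB change of -0.15 that turned to 0.24 once GC and length trends were removed. EIF2D, which can deliver initiator tRNA without eIF2, fell in shAMB cells (-0.39 ± 0.06 (SE), adjusted p = 6.28e-05) and was lower in KO tumours, at 66.0, 52.0, 54.2 and 51.3 against 83.9, 82.5, 94.3 and 93.9 CPM (-0.67 ± 0.10 (SE), adjusted p = 0.000465). EIF5, which triggers GTP hydrolysis by eIF2, fell in shAMB cells by 0.20, whereas EIF5B, the subunit joining GTPase, passed in none of the 3 (log2 fold changes 0.06, -0.05 and 0.16).

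EIF5A and EIF5A2, which code for the only known proteins with the amino acid hypusine, moved in opposite directions in sh4 cells. EIF5A (chr17:7306999-7312463, plus strand, GRCh38) went from 698, 662 and 595 to 398, 449.9 and 552 CPM (-0.48 ± 0.12 (SE), adjusted p = 0.00395) and EIF5A2 (chr3:170888418-170908644, minus strand, GRCh38) from 31.3, 33.1 and 34.6 to 57.8, 57.3 and 49.4 (0.73 ± 0.07 (SE), adjusted p = 6.23e-07). In KO tumours EIF5A was lower, at 249, 189, 236 and 184 against 297, 347, 392 and 369.7 CPM (-0.71 ± 0.13 (SE), adjusted p = 0.0012), and EIF5A2 higher, at 25.5, 39.5, 38.7 and 45.3 against 28.9, 24.3, 25.4 and 28.4 with overlapping groups (0.48 ± 0.16 (SE), adjusted p = 0.0319), a call lost in 7 of the 8 fits that left out 1 library (adjusted p up to 0.0879). In shAMB cells EIF5A fell (-0.32 ± 0.12 (SE), adjusted p = 0.0247), a call lost without DMSO replicate 3 or doxycycline replicate 1 (adjusted p of 0.0985 and 0.0815), and EIF5A2 had a log2 fold change of 0.04. EIF5AL1, an intronless copy near-identical to EIF5A whose reads may be shared with it, reached at most 5.31 CPM and fell in both hairpin lines (-0.58 and -0.57).

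**Figure D4:**
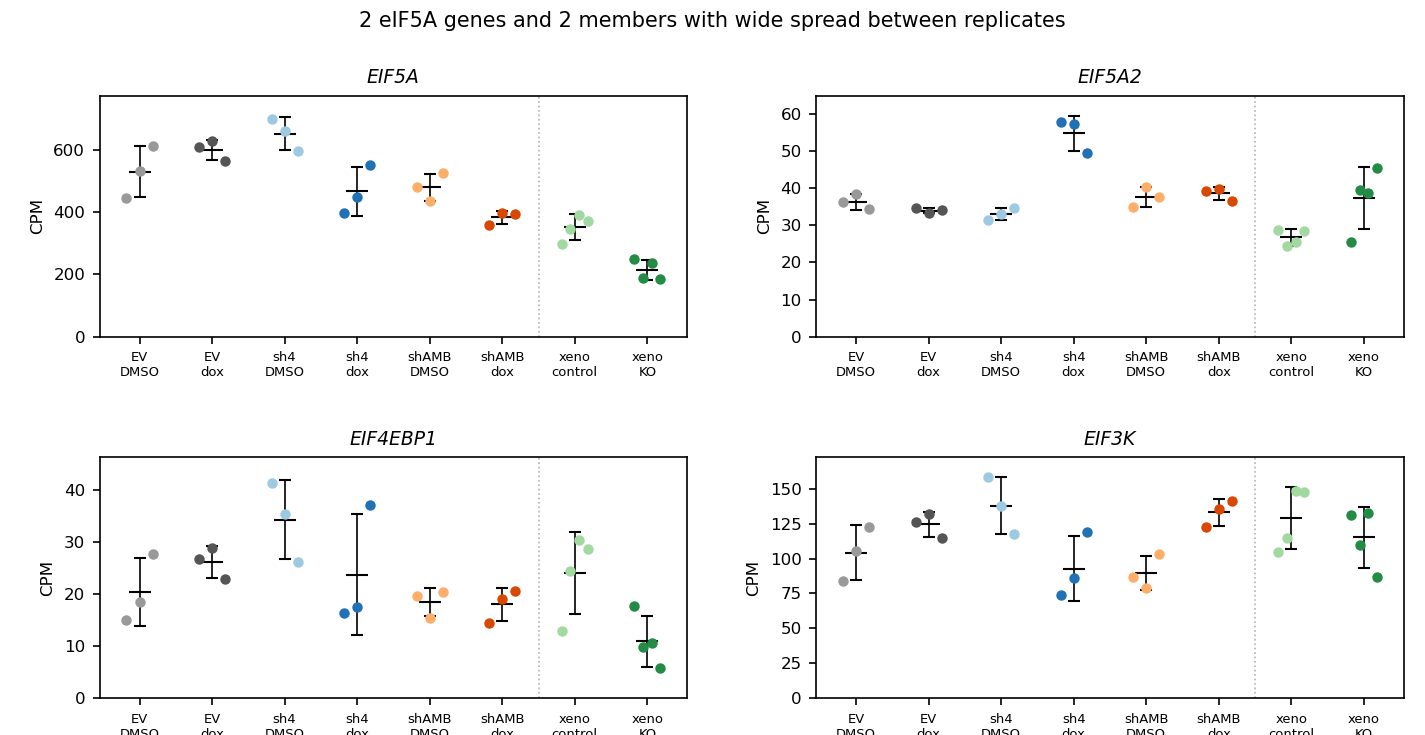
Level of EIF5A, EIF5A2, EIF4EBP1 and EIF3K in each library (vertical axes, CPM from 0), by group (horizontal axes); points are libraries and bars the mean and SD of 3 culture or 4 tumour libraries. In sh4 cells with doxycycline the highest EIF4EBP1 library, at 37.2 CPM, lies far above the other 2 at 16.5 and 17.6, and EIF3K shows the same order.

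Replicates agreed closely for most members: the median over groups of the coefficient of variation was below 10% for 44 of the 53, with a middle value of 6.06%. The exceptions included EIF3C (69.0%), EIF4EBP1 (27.1%), EIF4EBP3 (23.3%), EIF3K (16.1%), EIF6 (15.5%) and EIF3G (13.7%). In sh4 cells with doxycycline, the ratio of replicate 3 to the mean of the other 2 ran with the GC content of the members' transcripts (Spearman's rho 0.858 over 53 members of the same libraries, a description). EIF4EBP1 at 60.8% GC had a ratio of 2.19, EIF3K at 54.3% one of 1.49 and EIF4E3 at 40.1% one of 0.791. Without that library 32 members passed in the sh4 comparison in place of 29.

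Across the 3 comparisons, 7 members were lower in all (EIF3F, EIF3I, EIF3L, EIF4A1, EIF4A2, EIF4B and EIF5A), where 5.03% of all genes tested in both tables were, and 2 were higher in all (EIF2S1 and EIF2AK2), where 5.93% were. Of the 29 members called in sh4 cells and the 37 called in shAMB cells, 23 were common to both (79.3% and 62.2%): 2 rose in both (background 8.75%), 12 fell in both (7.11%) and 9 went opposite ways (12.3%). The 9 were EIF2AK1, EIF2B4, EIF3A, EIF3D, EIF3K, EIF4E2, EIF4EBP2, EIF4ENIF1 and EIF4G3. Between shAMB cells and tumours, 20 members were called in both (54.1% of 37 and 90.9% of 22), 4 higher (background 17.2%) and 16 lower (16.7%), and 0 went opposite ways, where 0.668% of all genes did. These values are no independent agreement of 2 hairpins, since the tumours carry a hairpin also used in culture, which by its name may be shAMB. Between sh4 cells and tumours 15 were common, 3 higher (background 7.07%), 7 lower (6.43%) and 5 opposite (6.70%).

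**Figure D5:**
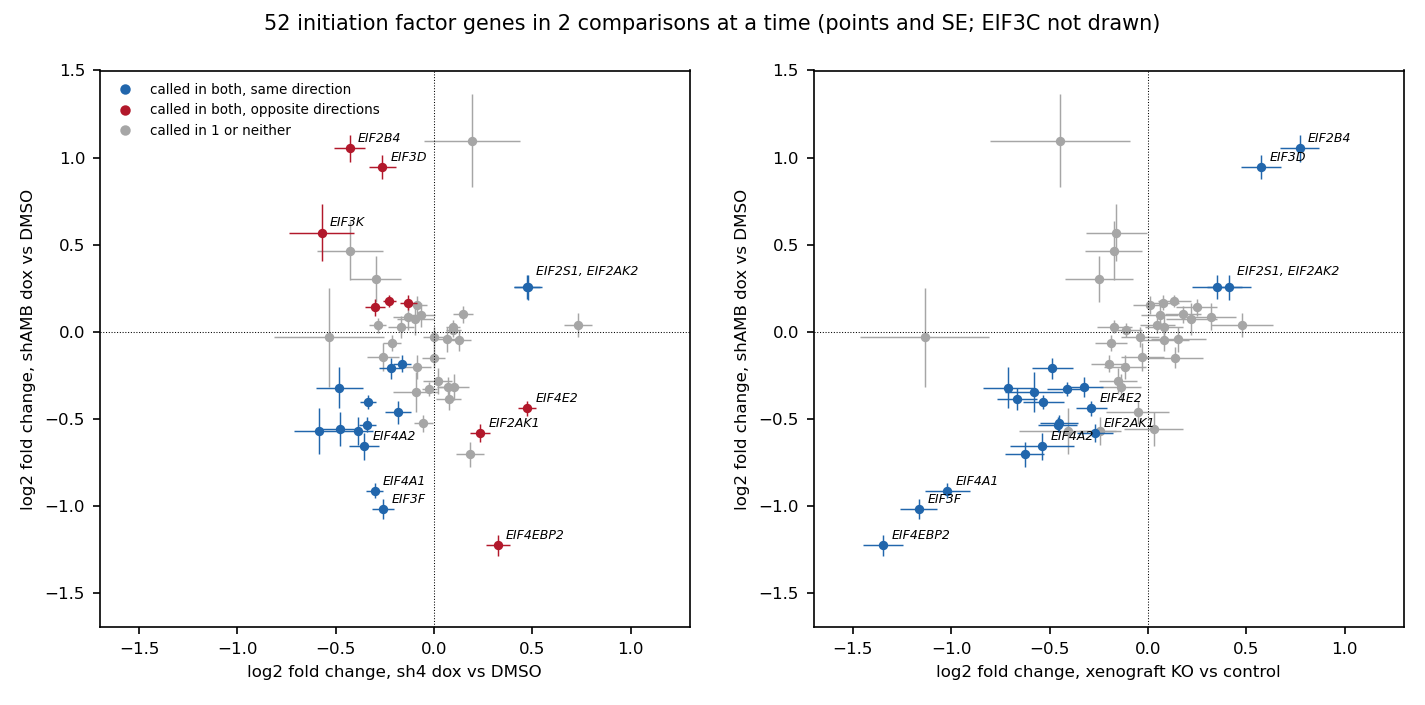
Log2 fold changes with SE of 52 members in shAMB cells (vertical axes) against sh4 cells (left, horizontal axis) and against KO tumours (right, horizontal axis). Blue points passed the test in both comparisons in 1 direction and red points in opposite directions; 9 members are red on the left and 0 on the right. EIF3C is not drawn.

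The wider translation machinery was followed through 41 further genes. In EV cells 0 of these passed (4 at an unadjusted p under 0.05). In sh4 cells 10 were higher and 12 lower (53.7% called), in shAMB cells 10 higher and 14 lower (58.5%), and in KO tumours 2 higher and 15 lower (41.5%), beside 40.9%, 66.0% and 41.1% of all genes. The share lay above the background in sh4 cells, below it in shAMB cells and near it in tumours. The 10 elongation and termination genes gave 1 higher and 6 lower in sh4 cells, 3 higher and 4 lower in shAMB cells and 1 higher and 7 lower in tumours (70.0%, 70.0% and 80.0% called, against the same backgrounds). EEF1A1, the main elongation factor, fell by 0.77, 0.93 and 0.96 on the log2 scale in the 3 comparisons. The release factor gene GSPT1 was lower in shAMB cells (-1.25) and KO tumours (-0.92) and did not pass in sh4 cells (-0.05). Its paralog GSPT2 was higher in all 3 (0.73, 0.80 and 0.91). DHPS and DOHH, the enzymes that make the hypusine of eIF5A, both rose in shAMB cells (0.96 and 1.65). They did not pass in sh4 cells (-0.22 and -0.46) or tumours (0.34 and -0.04).

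Of the 14 partners of initiation, 5 rose and 4 fell in sh4 cells, 0 rose and 6 fell in shAMB cells, and 0 were higher and 4 lower in KO tumours. Their shares of 64.3%, 42.9% and 28.6% stood against backgrounds of 40.9%, 66.0% and 41.1%. Fewer were called than among all genes in shAMB cells and tumours. PABPC1, the poly(A)-binding protein that bridges to eIF4G, fell in all 3 (-0.29, -0.76 and -0.62). Its relative PABPC4 rose slightly in sh4 cells (0.13) and fell in the others (-0.73 and -0.67). The 7 genes of the stress axis downstream of the eIF2 kinases gave 3 higher and 1 lower in sh4 cells, 3 higher and 2 lower in shAMB cells, and 1 higher and 2 lower in tumours (57.1%, 71.4% and 42.9% called). PPP1R15B, a subunit of the phosphatase that removes the phosphate from eIF2, was higher in all 3 (0.45, 0.68 and 0.72). The mRNA of ATF4, the transcription factor of that axis, rose in sh4 cells (0.24) and fell in shAMB cells (-0.42) and KO tumours (-0.28). Among 8 signalling genes around mTOR and the MNK kinases, 1 rose and 1 fell in sh4 cells, 2 rose and 2 fell in shAMB cells and 2 were lower in KO tumours (25.0%, 50.0% and 25.0% called, each below its background). mRNA levels do not give protein amounts, phosphorylation or translation rates, which were not measured in these libraries.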

How the data were processed

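RNA was measured in 18 culture and 8 tumour libraries, prepared with SMARTer Stranded Total RNA-seq v2 although the molecule label reads polyA RNA. The submitters' processing notes name STAR, SAMtools, RSEM and build hg38. No step that removes mouse reads from the tumour libraries is named among these. For the culture and tumour libraries, versions, annotation and strand setting are not given in the sources used here (the study's methods give tool versions for its mouse ganglia). The authors deposited RSEM expected counts (estimated counts, raw) and TPM (the authors' scaling by length and depth) for 26485 genes per table.

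Expected counts were rounded and fitted with edgeR 4.0.16 in R 4.3.3 (filterByExpr, TMM, quasi-likelihood F test, two-sided, Benjamini-Hochberg over all genes tested, threshold 0.05). The 18 culture libraries entered 1 joint model, each group having its own mean, and the 8 tumour libraries a separate one, since the tables were deposited separately. CPM used TMM-adjusted library sizes. Totals ranged from 35115915 to 62378060, and the median biological coefficient of variation was 0.115 in culture and 0.186 in tumours. Reads carry no molecular identifiers. The fitting code was tested on simulated data. Members, gene lists and tests were chosen with earlier results of these data known. Named members were the paralog sets EIF4EBP1-3, EIF4E, EIF4E2 and EIF4E3, EIF5A and EIF5A2, EIF4A1-3, EIF4G1-3, EIF1 and EIF1B, and EIF2AK1-4, plus, per comparison, up to 4 members that rose and 4 that fell the most among those called with a mean CPM of at least 1 and groups that did not overlap; other members are named as examples of their role. GC content came from GENCODE release 44 transcripts (87.4% of symbols, all members tested), loci from the same annotation and promoters from RefSeq. Alternatives were RLE scaling, DESeq2 1.42.0, no filter, a replicate block, leaving out each library, removing GC and length trends, fits of 6 libraries alone and, added after seeing the data, summed near-identical copies.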

Additional observations from a re-analysis of the deposited data

Results flagged for a closer look

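The tests of a difference between the responses of the lines are given here gene by gene, for the named genes. Some of these were named for large changes in these same libraries, which can raise the counts below. Among all genes tested, 32.6% differed for sh4 minus EV, 45.5% for shAMB minus EV and 60.9% for shAMB minus sh4. The effect of doxycycline in sh4 cells differed from that in EV cells for 15 of the 27 named genes (edgeR's quasi-likelihood test of the difference, adjusted p of 1.49e-05 to 0.014). The difference in log2 fold change was positive for EIF5A2 (0.83), EIF2S1 (0.57), EIF2AK2 (0.52), EIF4E2 (0.48), EIF4EBP2 (0.38) and EIF2AK1 (0.25). It was negative for EIF5AL1 (-0.74), EIF5A (-0.66), EIF2B4 (-0.63), EIF4E3 (-0.51), EIF3D (-0.44), EIF4A1 (-0.37), EIF3F (-0.35), EIF4A3 (-0.34) and EIF4G3 (-0.27).

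The effect in shAMB cells differed from that in EV cells for 19 of the 27 named genes (edgeR's quasi-likelihood test of the difference, adjusted p of 4.64e-09 to 0.0468). The difference in log2 fold change was positive for EIF2B4 (0.85), EIF3D (0.77), EIF2S1 (0.34) and EIF2AK2 (0.30). It was negative for EIF4EBP2 (-1.17), EIF3F (-1.11), EIF4A1 (-0.98), EIF5AL1 (-0.72), EIF2S2 (-0.69), EIF4E3 (-0.59), EIF2AK1 (-0.57), EIF4A2 (-0.57), EIF4G1 (-0.52), EIF5A (-0.50), EIF1 (-0.46), EIF4E2 (-0.43), EIF4E (-0.39), EIF2AK4 (-0.31) and EIF1B (-0.21).

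The effect in shAMB cells differed from that in sh4 cells for 16 of the 27 named genes (edgeR's quasi-likelihood test of the difference, adjusted p of 1.14e-09 to 0.042). The difference in log2 fold change was positive for EIF3C (3.90, 0.46 summed with its near-identical copy EIF3CL), EIF2B4 (1.48), EIF3D (1.21), EIF4EBP3 (0.90), EIF4G3 (0.44) and EIF4A3 (0.32). It was negative for EIF4EBP2 (-1.55), EIF4E2 (-0.91), EIF2S2 (-0.89), EIF2AK1 (-0.82), EIF3F (-0.76), EIF5A2 (-0.70), EIF4A1 (-0.61), EIF2AK4 (-0.39), EIF4A2 (-0.30) and EIF1 (-0.28).

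Among the 54 tumour groups of 4 libraries tested over the same 27 genes, 2 held a library far from the other 3 by Dixon's test at the 95% level, which chance gives in about 1 of 20 groups. EIF1B was at 14.8 CPM in control replicate 3, below the other control tumours, and EIF3F at 71.6 CPM in control replicate 2.

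Of the differences between lines, leaving out 1 of the 12 libraries ended the call for EIF1B (shAMB minus EV) in 8 fits, for EIF4EBP3 (shAMB minus sh4) in 8, for EIF4A2 (shAMB minus sh4) in 4, for EIF5A (shAMB minus EV) in 3, and for EIF2AK1 (sh4 minus EV) and EIF2AK2 (shAMB minus EV) in 1 each, with adjusted p of at most 0.121.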

How the results depend on the processing

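Counts of changed members stayed within 1.5 times their value under every alternative for the sh4, shAMB and tumour comparisons. Leaving out 1 library gave 26 to 32 members in sh4 cells, 33 to 36 in shAMB cells and 16 to 25 in tumours. Removing GC and length trends gave 43 members (17 higher, 26 lower) for the difference between shAMB and EV in place of 27 (5 and 22), and 2 members for each uninduced line against EV, where DESeq2 gave 1 each. Of all genes, 58.9% passed for that difference with the trends removed, and 4.96% (sh4) and 5.41% (shAMB) for the uninduced lines.

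Deviations of same-numbered libraries from their group means had correlations of -0.603 to 0.374. With 3 culture or 4 tumour libraries per group these values cannot exclude pairing, and the main fits used none. With a replicate block 0 members passed in EV cells, 23 in sh4 cells, 30 in shAMB cells and 15 in tumours, and 17, 19 and 23 for the differences sh4 minus EV, shAMB minus EV and shAMB minus sh4, all among those called without it. The share of all genes passing with the block was 0.0134% in EV cells, 29.3% in sh4 cells, 57.4% in shAMB cells and 30.9% in tumours. For the differences, in the same order, it was 18.2%, 33.9% and 49.7%. A block could not be fitted between lines under DMSO.

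The members' median log2 fold change moved in EV cells to 0.014 (RLE) and 0.013 (DESeq2), and in shAMB cells to -0.14 (RLE and DESeq2) and -0.15 (6 libraries alone). For sh4 minus EV it was -0.13 without GC and length trends. For shAMB minus EV it was -0.19 (RLE and DESeq2) and -0.085 (GC and length), and for shAMB minus sh4 -0.14 (RLE and DESeq2) and 0.052 (GC and length). For the uninduced lines it was 0.013 (sh4) and 0.019 (shAMB) without those trends. Leaving out 1 library gave medians of 0.0034 to 0.042 in EV cells, -0.11 to -0.065 in shAMB cells, -0.20 to -0.12 for sh4 minus EV and -0.13 to -0.042 for shAMB minus sh4.

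Named members' values called in neither the main fit nor the alternative changed sign under several settings. These were 6 each with RLE scaling, DESeq2 and no filter, 14 with GC and length trends removed and 53 in the leave-one-out fits. Turns of direction with a call in at least 1 of the fits came only with GC and length trends removed. EIF1B turned to 0.12 in sh4 cells, 0.24 in shAMB cells, 0.11 for shAMB minus EV and 0.12 for shAMB minus sh4. EIF4G2 turned to 0.12 in shAMB cells and EIF4A3 to 0.11 for shAMB minus EV. For shAMB minus sh4, EIF2S1 turned to 0.085, EIF4E to 0.12, EIF4EBP1 to -0.50 and EIF5A to -0.31. The cause was not tested. None of the alternatives shifted the median of all genes by over 0.1.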

Other observations

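EIF4E1B, a cap-binding paralog known from oocytes that was too scarce to be tested, was above 0 in 8 of 8 tumour libraries (at most 0.193 CPM) and in 4 of 18 culture libraries (at most 0.0672 CPM). The tables were fitted separately, and no test was run on this difference.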
